A study of Pimephales promelas with 10 samples.

Results

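The 200 probes with the brightest signal in control testes of the fathead minnow (Pimephales promelas) are described here, out of 49849 gene probes on the array. A probe's level is the log2 of its processed spot signal minus the log2 of the 75th percentile of its own array, averaged over the spots of the probe. Of all probes, 38371 were well above background on each of the 5 control arrays, and the 200 with the highest mean level over those arrays were taken. Control levels thus chose the members, and they are given below as a description only. The set was proposed as the most abundant transcripts, but the order of probes on an array also depends on how well each probe binds its target and how the target is labelled. It is therefore an order of brightness, not of transcript number, and it is called so throughout.

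Each array carried RNA from whole testes of adult male fish, from 1 tank. Both groups were kept for 21 days, the controls without IMX-101 (0 mg/L, 5 tanks) and the exposed fish with 12.6 mg/L of it (5 tanks). IMX-101 is an insensitive munition, an explosive mixture made to resist accidental detonation, and holds dinitroanisole (DNAN), nitrotriazolone (NTO) and nitroguanidine (NQ). The stated concentration adds measured NTO and NQ to nominal DNAN, little of which was measured as such in the water. A tank held 2 fish, and its RNA came from a single testis of 1 fish or was pooled from 1 testis each of both; the labels do not say which of these applies to a given array. The study asked how the mixture affects male reproductive physiology.

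A fish testis makes sperm in cysts, in which Sertoli cells surround a clone of germ cells that passes together from spermatogonia through meiosis to spermatids and sperm. Leydig cells between the cysts make androgens. In whole testis the RNA of all these cells is measured together, so that fewer cells of a type and less RNA per cell cannot be told apart. The files give no gene for a probe, and a search of the RefSeq gene table found 0 of the 49849 names. The probes are therefore named by their array identifiers only, the labelled tissue could not be checked against marker genes, and no role is given for any probe.

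The arrays came from 3 slides. Slide 1 held control tanks 1, 2 and 3 with exposed tank 1, slide 2 held control tanks 4 and 5 with exposed tanks 2 and 3, and slide 3 held exposed tanks 4 and 5 alone. Exposed tank 5 stood apart in the dim range, with 40.3% of its gene spots well above background against 81.4% to 86.5% on the other arrays. That range did not reach the 200 probes. All 200 were well above background on every array on which they had a value, and no gene spot was saturated on any array. The brightest of their spots reached between 42.4% and 59.9% of the scanner's saturation value, depending on the array. SINGLET_378 and UF_Ppr_AF_111787 lacked a value on exposed tank 5, where their only spot was flagged as an outlier, and were fitted with 4 exposed arrays.

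The mean control level of the 200 probes ran from 8.80 for SINGLET_1270 to 6.62 for UF_Ppr_AF_103802. SINGLET_1270 had a mean control intensity of 341328, which was 446-fold the 75th percentile. The last 5 probes inside were SINGLET_3992 (6.65), SINGLET_7894 (6.64), UF_Ppr_AF_116503 (6.64), UF_Ppr_AF_115832 (6.63) and UF_Ppr_AF_103802 (6.62). The first 5 outside were UF_Ppr_AF_111632 (6.62), SINGLET_45480 (6.60), SINGLET_46474 (6.60), SINGLET_7896 (6.59) and CONTIG9430 (6.59). The steps at the edge were thus far smaller than the median SD of 0.14 log2 between control tanks, and the number 200 marks no break in brightness.

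SINGLET_1270, UF_Ppr_AF_109972, SINGLET_9912 and SINGLET_11974 were among the 5 brightest probes on every array of both groups. SINGLET_1270 had control levels of 8.95, 8.87, 8.54, 8.73 and 8.92 and exposed levels of 8.16, 9.10, 8.81, 9.39 and 8.81 in tanks 1 to 5. Its exposed tank 1 lay below and its exposed tanks 2 and 4 above all controls, so that the groups overlapped. UF_Ppr_AF_109972 followed with control levels of 8.93, 8.74, 8.52, 8.77 and 8.90 and exposed levels of 8.41, 9.07, 8.76, 9.90 and 9.16. SINGLET_9912 had control levels of 8.85, 8.69, 8.52, 8.54 and 8.79 and exposed levels of 8.24, 9.02, 8.58, 9.71 and 9.24. In both of these exposed tank 4 was the highest of the 10 arrays and exposed tank 1 the lowest.

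The next probes repeated that order of the tanks. SINGLET_11974 ran from 8.17 to 8.55 in controls and from 8.08 (exposed tank 1) to 9.20 (exposed tank 4). SINGLET_520 ran from 8.20 to 8.55 in controls and from 8.04 (exposed tank 1) to 9.44 (exposed tank 4). SINGLET_733 ran from 8.09 to 8.52 in controls and from 7.86 (exposed tank 1) to 9.08 (exposed tank 4). For all of the 12 brightest probes, the lowest exposed value belonged to exposed tank 1 and the highest to exposed tank 4, and these exposed values lay on both sides of the control range. The 75th percentile subtracted from every probe of an array was the highest of all arrays on exposed tank 1 (962) and the lowest on exposed tank 4 (480). The 12 probes are therefore not separate observations of a tank order. Its cause was not tested.

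Among the 12 brightest, 3 probes dropped much further on exposed tank 1 than the rest. SINGLET_12855 had control levels of 8.38, 8.21, 7.84, 8.02 and 8.08, and exposed levels of 6.71, 8.35, 8.07, 8.45 and 8.35. CONTIG5442 had control levels of 8.43, 8.26, 7.95, 8.11 and 8.27, and exposed levels of 7.16, 8.52, 8.21, 8.91 and 8.68. SINGLET_9049 had control levels of 8.27, 8.07, 8.01, 7.90 and 8.05, and exposed levels of 7.30, 8.17, 7.95, 8.92 and 8.68. Exposed tank 1 alone was low in these probes. On that array CONTIG5442 ranked 97 and SINGLET_9049 63 in brightness, against 7 and 9 by control mean, and SINGLET_12855, at 8 by control mean, was near the end of the 200 brightest. Each of these probes is printed as 1 spot per array. SINGLET_45443, UF_Ppr_AF_109733 and SINGLET_46186 closed the 12 with control means of 7.98, 7.90 and 7.90 and spread less between tanks, SINGLET_46186 running only from 7.70 to 8.14 over all 10 arrays.

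The 200 probes are 0.401% of all probes and held a far larger part of the summed signal of the gene spots. Their share was 28.9%, 25.9%, 25.9%, 26.1% and 26.3% in control tanks 1 to 5 (26.6% ± 1.28, SD, n = 5). It was 22.7%, 28.3%, 25.8%, 33.3% and 28.8% in exposed tanks 1 to 5 (27.8% ± 3.93, SD, n = 5). The groups overlapped, and the exposed tanks held both the lowest (tank 1) and the highest share (tank 4). The 10 brightest alone held 2.12% ± 0.19 (SD, n = 5) of the signal in controls and 2.38% ± 0.793 (SD, n = 5) in exposed testes. These are shares of fluorescence, not of transcripts.

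The median level of the 200 probes was 7.35, 7.18, 7.27, 7.14 and 7.27 in control tanks and 7.12, 7.31, 7.35, 7.58 and 7.42 in exposed tanks. Exposed tanks 4 and 5 lay above all controls and exposed tank 1 below them. The order changed when spike-ins, RNAs added in a fixed amount during labelling, were used as the zero in place of the 75th percentile. Relative to the mean of the 6 bright spike-ins, the median was 4.88, 4.44, 5.12, 4.67 and 4.33 in control tanks and 4.92, 3.60, 4.92, 3.30 and 4.58 in exposed tanks. On this scale exposed tanks 2 and 4 were the lowest of all arrays, and tank 4 turned from the highest to the lowest. The direction of a shift of the whole set therefore depends on the scale, and comparisons below are given on the 75th percentile scale with the other scale beside them where it turns a direction.

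The 200 probes varied less between tanks than the array as a whole. Their median SD was 0.14 log2 over the control tanks (0.045 to 0.63) and 0.24 over the exposed tanks (0.053 to 0.80), against 0.33 and 0.51 over all 43080 tested probes. The next 200 probes in brightness had median SDs of 0.20 and 0.23. Spots of the same probe differed by a median SD of 0.046 to 0.075 log2 within an array, below the SD between tanks. This was taken over the 61 members with both of 2 printed spots on every array. Such spots share an array and its labelled RNA, whereas the SD between tanks also holds differences between arrays. The exposed SD exceeded the control SD in 158 of the 200 probes (79%), against 73.8% of all tested probes and 59.5% of the next 200 in brightness. Over all 10 arrays, the range of a probe had a median of 0.65 log2, or 1.57-fold. It stayed under 2-fold in 158 probes and under 1.5-fold in 87 of them.

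The steadiest over the control tanks was SINGLET_46499, with control levels of 6.73, 6.63, 6.72, 6.67 and 6.73 (SD 0.045). Its exposed levels were 6.48, 6.66, 6.93, 7.18 and 6.94, so that exposed tank 1 lay below and exposed tanks 3 to 5 above the whole control range. UF_Ppr_AF_107288 (control SD 0.047), SINGLET_2263 (0.054) and UF_Ppr_AF_111063 (0.063) were likewise wider over the exposed tanks, with exposed SDs of 0.20, 0.32 and 0.22. They and SINGLET_46499 were picked for a small control SD, which by itself favours a larger SD over the exposed tanks. UF_Ppr_AF_116974 had the narrowest range over all 10 arrays, from 7.33 to 7.60.

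At the other end, 5 probes had control SDs above 0.5 log2, and 4 of these moved in 2 opposite pairs. SINGLET_5947 had control levels of 7.60, 7.63, 6.69, 6.18 and 7.28 and exposed levels of 6.53, 8.00, 6.54, 8.14 and 7.23. UF_Ppr_AF_116503 had control levels of 7.14, 7.09, 6.24, 5.81 and 6.90 and exposed levels of 6.22, 7.72, 6.29, 7.91 and 6.74. Both were low in control tanks 3 and 4 and in exposed tanks 1 and 3, and both had exposed tanks 2 and 4 above every control and control tank 4 below every exposed tank, so that the groups overlapped in part.

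SINGLET_251 went the other way, with control levels of 6.69, 7.06, 7.66, 7.98 and 6.86 and exposed levels of 7.84, 6.67, 7.92, 6.84 and 6.73. SINGLET_30742 had control levels of 6.90, 7.15, 7.88, 8.13 and 7.17 and exposed levels of 7.92, 6.94, 8.16, 7.31 and 7.16. Both were high in the same 4 tanks, control 3 and 4 and exposed 1 and 3, which come from slides 1 and 2 and from both groups. Pearson's r over the 10 arrays was 0.99 between SINGLET_5947 and UF_Ppr_AF_116503, 0.98 between SINGLET_251 and SINGLET_30742, and -0.90 between SINGLET_5947 and SINGLET_251. After each array was centred on the median of the 200 probes, these values were 0.98, 0.99 and -0.86. They describe 10 arrays and probes chosen for their spread. UF_Ppr_AF_116503 is the only one of these 4 printed as 2 spots, and its range over all arrays, 4.29-fold, was the widest of the 200.

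CONTIG633, the other probe with a control SD above 0.5, had control levels of 6.95, 6.74, 7.30, 5.68 and 6.75 and exposed levels of 7.10, 6.88, 6.91, 6.41 and 6.33, with control tank 4 far below the rest. CONTIG6442 and UF_Ppr_AF_111419, chosen after their values were seen, formed a further pair with r = 0.99. CONTIG6442 had control levels of 7.22, 6.61, 7.43, 6.28 and 7.22 and exposed levels of 7.26, 7.19, 6.41 and 7.04 in tanks 1 to 4, with tank 5 close to tank 4. It was low in control tanks 2 and 4 and exposed tank 3. UF_Ppr_AF_111419 was low in the same 3 tanks, at 6.49, 6.25 and 6.33, and lay between 6.88 and 7.39 in the others.

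The 3 pairs of probes most alike over the arrays were UF_Ppr_AF_113600 with UF_Ppr_AF_115652 (r = 0.997), CONTIG5398 with UF_Ppr_AF_113721 (0.995) and SINGLET_46205 with CONTIG9581 (0.995). CONTIG5398 had control levels of 7.68, 7.69, 7.63, 7.64 and 7.01 and exposed levels of 7.59, 7.83, 7.91, 7.98 and 7.91. UF_Ppr_AF_113721 had control levels of 7.59, 7.65, 7.60, 7.58 and 6.77 and exposed levels of 7.50, 7.83, 7.86, 7.98 and 7.98. Both were low in control tank 5 while the other control tanks lay close together, and r was 0.98 over the 9 arrays without it. In the first pair the lowest and highest arrays were the same, UF_Ppr_AF_113600 running from 7.41 (exposed tank 1) to 8.35 (exposed tank 4) and UF_Ppr_AF_115652 from 6.46 to 7.47 on the same arrays.

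Among the 19503 pairs of the 198 probes with a value on every array, 560 had r above 0.95, and 77 did after centring on the median of the set. The median r fell from 0.50 to 0.030 once the shift of the whole set was taken out by the centring. Centring on the median of the same probes favours such a fall by itself. Whether probes of a pair read the same transcript was not tested, since no sequence of a probe was used here.

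Whether exposure changed the brightest probes was asked with limma over all 43080 tested probes, with Benjamini-Hochberg adjustment. At an adjusted p under 0.05, 3 probes were called, 0.00696% of those tested, and 0 of the 200 were among them. The lowest adjusted p of a member was 0.609, for SINGLET_11389. At an unadjusted p under 0.05, 0 members were higher and 0 lower, against 2.63% higher and 6.11% lower over all tested probes. Non-overlapping groups were found for 0 members, against 0.327% of all tested probes with higher and 2.21% with lower exposed values. Without exposed tank 1, 12 members (6%) were higher at an unadjusted p under 0.05, near the 5.56% of all tested probes, and 0 were called. Without control tank 1, 2 members (1%) were higher at that p, against 2.19% of all tested probes.

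The sizes that the data leave room for were small for most of the set. The 95% interval of the change lay within 2-fold in either direction for 197 of the 200 probes (98.5%), against 58.4% of all tested probes, and within 1.5-fold for 141 (70.5%), against 19.4%. The exceptions to the 2-fold bound were SINGLET_5947, UF_Ppr_AF_116503 and SINGLET_6116, whose intervals ended at 1.11, 1.24 and 1.02 log2. The 2-fold bound depended on the scale. It held for 200 members with quantile normalization, and for 199 each with median centring and with normexp background correction. With spike-in scaling the interval lay within 2-fold for 1 of the 200, and with slide as a fixed block for 193. The slide block fit rests on exposed tanks 1 to 3, since slide 3 held no control array. Each tank was measured on 1 array, so the intervals cover the spread between tanks and between arrays together, but not the choice of scale.

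The log2 change of the 200 probes had a median of 0.11 (-0.30 to 0.40), with a median SE of 0.16. It was above 0 in 168 probes (84%), against 46.7% of all tested probes, whose median change was -0.027, and below 0 in 32 (16%), against 53.3%. The next 200 probes in brightness had a median change of 0.056. Of the 400 brightest, the members included, 291 were above 0 and 109 below. Members were chosen on their control levels alone, which by itself favours a lower exposed value. The direction of the whole set turned with the scale and with slide in the model. With slide as a fixed block, exposed tanks 4 and 5, alone on slide 3, add nothing to the group estimate. That fit compares exposed tanks 1 to 3 with the controls of their own slides. The median change was -0.050 with quantile normalization (54 higher, 146 lower), -0.42 with spike-in scaling (0 higher, 200 lower) and -0.015 with slide as a fixed block (87 higher, 113 lower). It was 0.13 within slide 2, which held 2 arrays of each group, and -0.19 within slide 1, where exposed tank 1 is the only exposed array and the value is that of 1 tank. Spike-in scaling moved the median of all tested probes to -0.56 as well. Relative to the median of all tested probes, the members' median was 0.14 higher on the 75th percentile scale, 0.11 higher with slide as a block and 0.043 higher after quantile normalization. On the spike-in scale it was 0.14 as well, which had to be so, since that scaling shifts all probes of an array alike. The same difference was -0.0042 with normexp background correction, 0.20 within slide 2 and -0.0061 within slide 1. No direction is given for the set as a whole.

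The largest estimate above 0 was that of SINGLET_6116. It had control levels of 7.16, 7.01, 6.83, 7.07 and 7.26 and exposed levels of 6.65, 7.49, 7.17, 8.32 and 7.71, a difference of 0.40 log2 (SE 0.28, limma adjusted p = 0.701). Its exposed tank 1 was the lowest and exposed tank 4 the highest of all arrays, and the change was 0.19 without exposed tank 4, -0.057 with slide as a block and -0.13 with spike-in scaling. SINGLET_46100 (0.38), SINGLET_45061 (0.36) and UF_Ppr_AF_109983 (0.35) had the same order of tanks, and each was below 0 with slide as a block and with spike-in scaling. The slide block fit leaves exposed tanks 4 and 5 out of the comparison.

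UF_Ppr_AF_113721, whose levels are given above, differed by 0.39 log2 (SE 0.20, limma adjusted p = 0.618). Its exposed tanks 2 to 5 lay above every control tank, but without control tank 5 the change was 0.23. CONTIG5398 differed by 0.31 log2 (SE 0.17, limma adjusted p = 0.640), and by 0.18 without control tank 5. SINGLET_11389 had control levels of 7.21, 6.89, 7.01, 6.55 and 6.87 and exposed levels of 6.93, 7.30, 7.06, 7.59 and 7.48, a difference of 0.37 log2 (SE 0.19, limma adjusted p = 0.609). Its exposed tanks 2, 4 and 5 lay above all controls and the others within their range. With spike-in scaling these changes were -0.14, -0.22 and -0.17.

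The largest estimates below 0 were smaller. UF_Ppr_AF_106353 had control levels of 7.55, 7.23, 7.03, 6.45 and 6.68 and exposed levels of 6.78, 6.68, 6.98, 6.57 and 6.43, a difference of -0.30 log2 (SE 0.22, limma adjusted p = 0.723). Its control tanks of slide 1 were the highest of the arrays, the groups overlapped, and the change was -0.058 with slide as a block and 0.27 within slide 2. SINGLET_31470 (-0.20), UF_Ppr_AF_104308 (-0.17), SINGLET_480 (-0.12), SINGLET_12855 (-0.12) and SINGLET_31405 (-0.12) followed, each with overlapping groups. The change of SINGLET_12855 had an SE of 0.32 and was 0.20 without exposed tank 1. The 95% interval of the change included 0 for each of the 200 probes.

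Chosen on the exposed arrays instead, 192 of the 200 probes would be the same (96% of each list), and chosen on all 10 arrays, 97.5%. Leaving out each control array in turn kept 198 or 199. Array by array, 163 members were among the 200 brightest on every control array and 141 on all 10 arrays. The number of members outside the 200 brightest was 10, 8, 10, 11 and 17 in control tanks 1 to 5 and 30, 22, 40, 12 and 16 in exposed tanks 1 to 5. SINGLET_378 and UF_Ppr_AF_111787, without a value on exposed tank 5, were not counted there. Ranks on single arrays were taken only among the 38371 probes that could have been chosen. Exposed tanks 1, 2 and 3 thus departed most from the control list. By the values present, tanks 4 and 5 lay within the range of the controls, which chose the list.

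The probes that left the list farthest by exposed mean were UF_Ppr_AF_103802 (rank 220), SINGLET_9469 (218), SINGLET_480 (216), UF_Ppr_AF_117822 (207) and SINGLET_3992 (204). UF_Ppr_AF_103802 had control levels of 6.44, 6.91, 6.43, 6.83 and 6.50 and exposed levels of 5.55, 6.57, 6.63, 6.84 and 7.09, so that its fall came from exposed tank 1, where it ranked 525. Entering highest were UF_Ppr_AF_104743 (control rank 216, exposed rank 140), SINGLET_33974 (244 to 179) and UF_Ppr_AF_103035 (215 to 185), with CONTIG9430 and SINGLET_46474, which lay just outside by control mean. Of these, UF_Ppr_AF_104743 had the largest log2 change, 0.58 (limma adjusted p = 0.641).

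The order of brightness within the set was alike on all arrays. Over the 198 probes with all values, Spearman's rho averaged 0.85 between control arrays (0.78 to 0.92, 10 pairs of arrays), 0.77 between exposed arrays (0.66 to 0.92, 10 pairs) and 0.83 between a control and an exposed array (0.69 to 0.92, 25 pairs). These are correlations across probes, which are not independent. The lowest value was between exposed tanks 1 and 4, and the highest between exposed tanks 4 and 5, the 2 arrays of slide 3.

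The names of the probes, which the rule did not use, fell into the same kinds as on the rest of the array. SINGLET names made up 94 of the 200 (47%) against 49.4% of the 38371 probes that could have been chosen. UF_Ppr_AF names made up 75 (37.5%) against 31.1%, and CONTIG names 31 (15.5%) against 18.6%. UF_Ppr_AM names made up 0 of the 200 against 0.80%.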

How the data were processed

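Expression was measured on 10 Agilent one-colour arrays, 1 per tank, 5 per group; groups are from the sample titles. The submitters' processing notes name Agilent Feature Extraction 10.7.3.1; per the file headers, the deposited intensity is the background-subtracted processed spot signal on a linear scale. The authors also deposited log2 values, used as an alternative only. Here outlier spots (131 to 281 per array) were dropped, and levels were made as stated above. All 43080 probes that passed the background call on 3 or more arrays of either group were compared with limma 3.58.1 (lmFit, eBayes, group only) in R 4.3.3, two-sided, after tests on simulated data. Alternatives were other scalings, background correction, filters, slide, variance settings and each array left out. The number of arrays limits the precision. The members and gene lists were chosen with earlier results of these data known; the gene lists could not be used without gene names. Probes are named by extremes of brightness, change, spread, rank and likeness; exceptions are marked. Tables used Python 3.11.15 and pandas 2.3.3.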

Additional observations from a re-analysis of the deposited data

Results flagged for a closer look

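Of 114 groups of 5 arrays checked, 10 held a value far from the other 4. Chance alone would give 1 in 20, or 5.7, for independent groups not picked by their values. Many of these groups were probes named for extremes of their values, and all came from the same 10 arrays. The count of 10 can therefore not be set against chance. SINGLET_12855 was at 6.71 in exposed tank 1 and at 8.07 to 8.45 in the other exposed tanks. In control tank 5, CONTIG5398 was at 7.01 (7.63 to 7.69 in the other controls) and UF_Ppr_AF_113721 at 6.77 (7.58 to 7.65). SINGLET_31405 was at 7.34 in exposed tank 4 (6.83 to 6.96 in the others). In exposed tank 3, SINGLET_480 was at 6.92 (6.49 to 6.52 in the others) and SINGLET_7894 at 6.90 (6.61 to 6.68). SINGLET_9469 was at 6.37 in control tank 2 (6.71 to 6.75 in the others). The share of signal held by the 200 probes was 28.9% in control tank 1 (25.9% to 26.3% in the others). In exposed tank 5, 40.3% of spots were well above background (81.9% to 85.1% in the others), and the lowest intensity was 38.8 (2.26 to 3.47).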

How the results depend on the processing

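In all 27 alternative fits 0 members were called (lowest adjusted p 0.266, within slide 1). The authors' table, kept outlier spots, other dim-probe filters, slide as a random block, array weights, median centring and other choices of members kept the members' median change on the same side of 0. It was 0.053 to 0.18 with 1 array left out, and -0.050 (quantile), -0.015 (slide as a fixed block), -0.42 (spike-in) and -0.19 (within slide 1). Added after seeing the data, centring on the members' median gave -0.0010, a value that this centring by itself sets near 0. With slide as a fixed block and the same centring, also added after seeing the data, the median change was -0.023. Over all probes the 3 calls became 0 with quantile normalization (4042 at an unadjusted p under 0.05), normexp (2702), probes well above background on all arrays (1649), within slide 1 (6238), within slide 2 (2432), the replicate block (3436) and an adjusted p under 0.01. They became 1 with median centring, spike-ins, trended robust variance and slide as a fixed block with or without members' centring. The calls were 2 with no filter on dim probes and with members' centring alone, and 0 to 2 with 1 array left out. Members at an unadjusted p under 0.05 were 4 lower (2%, against 10.73% of all probes) within slide 1, whose exposed arm is 1 array assumed to vary like the controls, 2 higher (1%, against 2.54%) with trended robust variance, and 0 to 12 higher with 1 array left out (12, or 6%, against 5.56% without exposed tank 1). Replicate numbers did not pair the tanks (r of same-numbered tanks -0.29 to 0.080); with the replicate block the members' median change was 0.11. Of 351 log2 changes of 13 named probes under the alternatives, 30 changed sign, none of a called probe; the cause was not tested. With spike-ins they were -0.18 (UF_Ppr_AF_109983), -0.22 (CONTIG5398), -0.16 (SINGLET_46100), -0.14 (UF_Ppr_AF_113721), -0.17 (SINGLET_45061), -0.13 (SINGLET_6116) and -0.17 (SINGLET_11389). Within slide 1 the same probes, in that order, were at -0.33, -0.083, -0.41, -0.11, -0.31, -0.35 and -0.10. With slide as a fixed block, and with members' centring added, UF_Ppr_AF_109983 was at -0.018 and -0.026, SINGLET_46100 at -0.071 and -0.080, SINGLET_45061 at -0.088 and -0.096, SINGLET_6116 at -0.057 and -0.065, and SINGLET_31470 at 0.045 and 0.037. Both slide block fits rest on exposed tanks 1 to 3 and the controls of their slides. Within slide 2 SINGLET_12855 was at 0.16, UF_Ppr_AF_106353 at 0.27, SINGLET_31470 at 0.13 and SINGLET_480 at 0.20. SINGLET_12855 was at 0.015 with array weights and at -0.24 to 0.20 with 1 array left out. Normexp and the signal share on mean spot signals were planned but not run, since median spot signals were used in their place (added after seeing the data).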

Other observations

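The numbers in the probe names of the brightest probes lay close together, as was seen after the values. SINGLET_45000 to SINGLET_46999 held 44 of the 94 SINGLET members (46.8%) but 5.62% of the SINGLET probes eligible for the set. CONTIG5000 to CONTIG5999 held 15 of the 31 CONTIG members (48.4%) against 10.3%, and CONTIG9000 to CONTIG9999 held 10 (32.3%) against 9.29%. SINGLET_30000 to SINGLET_31999 held 10 of the 94 (10.6%) against 3.42%. The labels do not say what the numbers stand for.

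Some probes outside the set had a high r with its tank-dependent members in a search over 19282 probes that were above background on all arrays. The probe most like SINGLET_251 was SINGLET_12118 (r = 0.98 over 10 arrays), with control levels of 3.13, 3.85, 4.60, 5.06 and 3.50 and exposed levels of 4.67, 2.92, 4.92, 3.58 and 3.47. It was high in the same 4 tanks. UF_Ppr_AF_118265 (r = 0.96) was dim, with control levels of -1.79, -1.33, 0.25, 0.58 and -1.99 and exposed levels of 0.17, -1.64, 0.33, -0.96 and -1.57. The counts that follow are over all 19282 probes and include members of the set. The probe most like SINGLET_5947 was the member UF_Ppr_AF_116503, and that most like CONTIG6442 the member UF_Ppr_AF_111419. SINGLET_251 had 10 probes with r above 0.9 and 4 with r below -0.9. SINGLET_5947 had 2 and 8, CONTIG6442 6 and 0, CONTIG633 8 and 3, and SINGLET_12855, which was low in exposed tank 1 alone, 35 and 26. These probes were picked for their r, which rests on 10 arrays. A search over so many probes gives some high and low r by itself. How many it would give was not computed, so the counts cannot be set against chance.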
